A study of Mus musculus with 27 samples.

Results

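Of the 45070 genes in the table, 5 were followed through the IL-4 and LPS responses of primary mouse macrophages: Scn3a, Tmem26, Rasgrp1, Tarm1 and Mylk. They were chosen by their untreated and interleukin-4 (IL-4) values, near 0 before and among the largest rises after the cytokine, so those values are given as a description with no test. Ranked by their largest IL-4 rise among the 7405 genes with an IL-4 group mean of at least 50 normalised read counts, Scn3a was 1st, Tmem26 3rd, Rasgrp1 4th and Tarm1 5th. Pdcd1lg2, which encodes a ligand of the receptor PD-1, was 2nd and is not among them. Mylk was only 17th, at a log2 difference of 5.29, between Serpina3g at 5.33 and Slc7a2 at 5.19. The label of largest rises therefore holds for 4 of the 5 genes and less well for Mylk. Within the group of 18 ranked genes that had every untreated value at or under 3, Mylk was 14th. Tmem26 falls outside that group because 1 untreated replicate stood at 5.

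The cells were bone marrow-derived macrophages (BMDM), grown from the marrow of male young-adult wild-type C57BL/6 mice. All groups, the untreated one included, had first received the solvent DMSO for 1 h, so no group was free of it. Cells were then left untreated or given lipopolysaccharide (LPS) or IL-4 at 10 ng/ml for 0.5, 1, 2 or 4 h, with 3 replicates in each of the 9 groups. The time courses served the study to find genes that either stimulus regulates, as a basis for its work on kinase inhibitors.

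RNA bound to chromatin was measured, which is rich in transcripts still being made. Values are read counts per gene that the authors normalised on genes of constant level and rounded, written here as normalised read counts. The number of reads behind a sample is not known from them. The sums over all genes ran from 2469768 to 2790981 without LPS and from 3571492 to 4058199 with it. The sum of 8 macrophage markers lay between 9601 and 17928 normalised read counts in every sample, led by Adgre1 at means of 4245 to 9452. Single markers moved in both directions. Csf1r went from a mean of 1971 in untreated cells to 456 at LPS 2 h and Itgam from 725 to 223 at IL-4 4 h. Cd14 went from 24.7 to 7.67 at IL-4 4 h and to 358 at LPS 0.5 h, and Fcgr1 from 72.3 to 971 at LPS 4 h. The T cell genes Cd3e and Cd3g were at 0 in every sample and Cd3d and Cd2 at or under 3 throughout. The rest of the T cell list was led by Cd28, at a mean of 206 normalised read counts in untreated cells, 61 at IL-4 2 h, 134 at IL-4 4 h and 1.33 at LPS 4 h, while Cd5 reached 19.7 at LPS 0.5 h and Lck 24.7 at LPS 2 h. All 4 B cell genes, all 5 mast cell genes and 4 of 5 neuron genes had means under 10 in every group. Of 4 dendritic cell genes Xcr1 was at 0 in every sample, whereas Zbtb46 reached a mean of 60.7 at LPS 1 h, Clec9a 29.3 at LPS 4 h and Flt3 12 at IL-4 1 h, from 0.667 untreated. The sum of these 4 was 8 to 14 in untreated samples, 12 to 29 after IL-4 and 15 to 97 after LPS, and the part of such cells in the results was not tested. In such bulk samples a change in the number of cells making an RNA cannot be told apart from a change in the RNA made per cell.

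IL-4 is a cytokine of type 2 immunity. Its receptor activates the kinases JAK1 and JAK3 and through them the transcription factor STAT6, which enters the nucleus and binds DNA at paired half-sites (TTC and GAA) that are typically spaced by a few bases. In macrophages this programme is known for genes of alternative activation such as Arg1 and Retnla. LPS, a component of the wall of Gram-negative bacteria, acts instead through the receptor TLR4 and NF-κB and, later, through interferon. The 5 genes are not known for a shared task. Scn3a encodes a pore-forming subunit of the voltage-gated sodium channels that carry nerve impulses. Tmem26 encodes a membrane protein best known as a surface marker of beige fat cells. Rasgrp1 encodes an exchange factor that loads Ras with GTP when it meets diacylglycerol and calcium, and is best known from lymphocytes. Tarm1 encodes a receptor of the immunoglobulin family on myeloid cells that signals with the adaptor FcRγ, the product of Fcer1g. Mylk encodes the calmodulin-dependent kinase that phosphorylates myosin light chain and so starts contraction in smooth muscle.

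The promoters of 4 of the 5 genes were read from RefSeq windows on GRCm38.p6 that run from 250 bases before the annotated start to 50 after it. They are shown for the genes whose windows held one of the 5 short motifs searched on both strands, because the genes were chosen for their rise after IL-4. Capitals mark every motif match, and each window is printed 5′ to 3′ on the strand of its gene.

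Tmem26, chr10:68723496-68723795, plus strand: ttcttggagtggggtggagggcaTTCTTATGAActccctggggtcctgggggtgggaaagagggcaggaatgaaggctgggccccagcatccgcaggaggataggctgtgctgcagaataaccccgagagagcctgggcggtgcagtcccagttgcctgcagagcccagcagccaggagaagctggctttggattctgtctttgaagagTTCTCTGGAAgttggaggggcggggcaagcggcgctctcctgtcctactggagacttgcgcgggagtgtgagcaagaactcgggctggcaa

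Rasgrp1, chr2:117342828-117343127, minus strand: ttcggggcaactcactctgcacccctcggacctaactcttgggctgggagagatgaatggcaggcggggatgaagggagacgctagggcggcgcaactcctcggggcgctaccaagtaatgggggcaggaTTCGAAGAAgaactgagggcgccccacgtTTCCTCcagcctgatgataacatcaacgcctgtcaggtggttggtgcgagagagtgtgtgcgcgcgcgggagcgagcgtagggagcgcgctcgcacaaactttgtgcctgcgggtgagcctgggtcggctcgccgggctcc

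Tarm1, chr7:3502575-3502874, minus strand: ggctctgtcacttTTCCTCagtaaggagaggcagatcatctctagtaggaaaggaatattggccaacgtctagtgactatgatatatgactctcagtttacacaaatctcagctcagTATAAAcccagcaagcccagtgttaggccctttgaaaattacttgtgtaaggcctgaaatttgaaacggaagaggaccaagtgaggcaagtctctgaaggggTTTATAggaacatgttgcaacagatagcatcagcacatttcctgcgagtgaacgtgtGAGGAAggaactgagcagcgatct

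The STAT6 motif, written TTCNNNNGAA, was found 2 times in the Tmem26 window and in neither of the other windows shown. Counted from the start base as 0, its matches lay at −227 to −218, reading TTCTTATGAA, and at −41 to −32, reading TTCTCTGGAA. The Rasgrp1 window held the general STAT motif, TTCNNNGAA, as TTCGAAGAA at −120 to −112, and the core bound by the macrophage factor PU.1, GAGGAA, on the opposite strand at −91 to −86. The Tarm1 window held the PU.1 core at −237 to −232 and at 26 to 31 and the TATA box letters TATAAA at −133 to −128 and, on the opposite strand, at −31 to −26. The Mylk window (chr16:34784700-34784999, plus strand) held none of them, and no window held the EGR core GCGTGGG. Among all 32851 windows of this length 6.95% held the STAT6 motif, 8.30% the general STAT motif, 28.3% the PU.1 core, 13.6% TATAAA and 5.04% the EGR core. Base composition differed between the windows, from 26 CpG pairs and 63.7% G and C in Rasgrp1 to 5 and 44.7% in Tarm1 and 4 and 53.3% in Mylk, against medians of 7 and 52.7%. A match in letters is no evidence of binding, and binding farther from the start was not examined.

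Scn3a (chromosome 2, 65457118 to 65567492, minus strand, GRCm38) went from almost no signal to the largest IL-4 difference of the 5 genes. Untreated replicates stood at 1, 0 and 0 normalised read counts. After IL-4 the replicates stood at 4, 7 and 8 (0.5 h), 26, 29 and 40 (1 h), 133, 198 and 230 (2 h) and 551, 731 and 860 (4 h), the last a mean of 714 ± 155 (SD, n = 3). None of these groups overlapped, and each step up was severalfold, so the gene had not levelled off at the last time point. The log2 differences from untreated, on log2(value + 1), were 2.50, 4.67, 7.18 and 9.12. Replicate 1 was the lowest in all 4 IL-4 groups, and the SD was 21.7% to 32.9% of the mean.

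Tmem26 (chromosome 10, 68723746 to 68782654, plus strand) climbed earlier and with little spread. It stood at 5, 0 and 2 normalised read counts in untreated cells. After IL-4 the replicates were 42, 41 and 34 (0.5 h), 127, 112 and 143 (1 h), 326, 320 and 353 (2 h) and 517, 502 and 500 (4 h), the last a mean of 506 ± 9.29 (SD, n = 3). All 4 IL-4 groups were separate from each other and from untreated. The log2 differences were 3.93, 5.61, 6.99 and 7.60, and the SD at 4 h was 1.84% of the mean.

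Rasgrp1 (chromosome 2, 117279983 to 117342877, minus strand) reached its plateau by 2 h. Its untreated values were 2, 1 and 3 normalised read counts. After IL-4 it stood at 98, 91 and 87 (0.5 h), 229, 218 and 251 (1 h), 429, 489 and 507 (2 h) and 405, 504 and 540 (4 h), the last a mean of 483 ± 69.9 (SD, n = 3). The 2 h and 4 h groups overlapped, while all earlier groups were separate. The log2 differences were 5.01, 6.34, 7.36 and 7.38.

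Tarm1 (chromosome 7, 3486500 to 3502624, minus strand) was listed at 0 in all 3 untreated replicates. At IL-4 0.5 h it was already at 41, 63 and 75 normalised read counts, followed by 77, 101 and 113 (1 h), 73, 98 and 108 (2 h) and 128, 169 and 163 (4 h), the last a mean of 153 ± 22.1 (SD, n = 3). The 0.5 h group lay above all untreated values and did not overlap the 1 h group, but it overlapped the 2 h group. The 1 h and 2 h groups overlapped, and the 4 h group was above both. Against a floor of 3 normalised read counts per library the mean was at least 19.9-fold higher at 0.5 h, 32.3-fold at 1 h, 31-fold at 2 h and 51.1-fold at 4 h. As for Scn3a, replicate 1 was the lowest in all 4 IL-4 groups.

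Mylk (chromosome 16, 34784950 to 35002434, plus strand) came late. It was at 1 normalised read count in each untreated replicate. After IL-4 it stood at 5, 8 and 2 (0.5 h), 2, 1 and 3 (1 h), 12, 14 and 11 (2 h) and 66, 91 and 76 (4 h), the last a mean of 77.7 ± 12.6 (SD, n = 3). The 0.5 h and 1 h groups overlapped each other, 1 replicate of the 1 h group equalled the untreated value, and the 0.5 h, 2 h and 4 h groups lay above untreated. The log2 differences were 1.45, 0.53, 2.73 and 5.29. Of 8 marker genes of smooth muscle cells and fibroblasts, Des and Col3a1 were at or under 3 in every sample, the smooth muscle myosin gene Myh11 had means of at most 3.67, and Col1a2 had the highest means, 35 to 58.3. The sum of the 8 ranged from 60 to 107 in untreated cells, from 55 to 190 at IL-4 4 h and from 77 to 236 at LPS 4 h, with Tagln at means of 7.33, 8.33 and 36.3. Their part in the Mylk values was not tested.

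**Figure D1:**
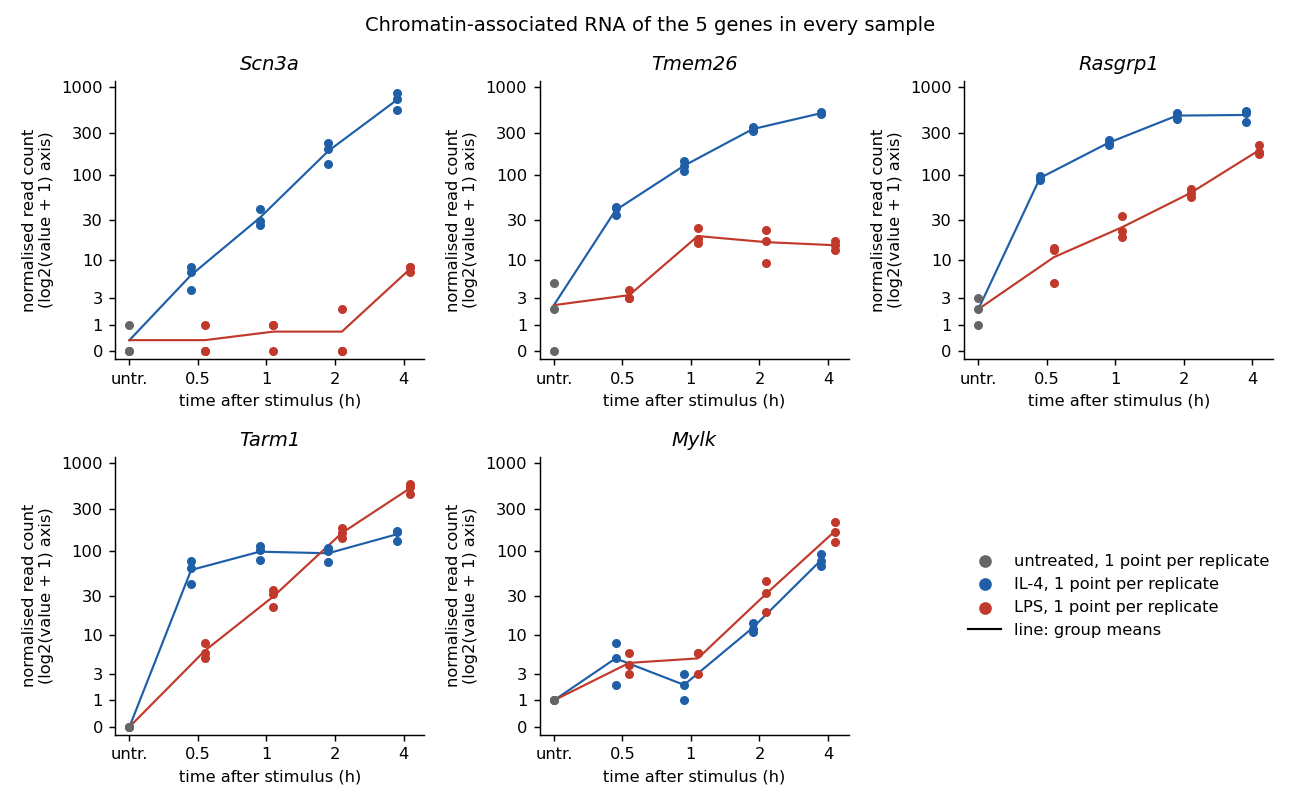
Normalised read counts of the 5 genes in every sample, on a log2(value + 1) axis, against time after the stimulus in h (time points evenly spaced, not to scale), with 1 point per replicate and lines through the group means. IL-4 (blue) carried Scn3a to a mean of 714 and Tmem26 to 506 at 4 h while LPS (red) left them at 7.67 and 15, whereas Tarm1 and Mylk ended higher after LPS, at 518 and 166.

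Set against the level each gene had at IL-4 4 h, the build-up over time differed widely. At 0.5 h Tarm1 had 38.9% of its 4 h mean, Rasgrp1 19.0%, Tmem26 7.70%, Mylk 6.44% and Scn3a 0.887%. At 1 h the shares were 63.3% for Tarm1, 48.2% for Rasgrp1, 25.1% for Tmem26, 4.44% for Scn3a and 2.58% for Mylk. At 2 h Rasgrp1 had 98.3%, Tmem26 65.8%, Tarm1 60.7%, Scn3a 26.2% and Mylk 15.9%. Tarm1 and Rasgrp1 were thus the early genes, Tmem26 was intermediate, and Scn3a and Mylk gained most of their signal between 2 and 4 h. The 14 other genes that were near 0 in untreated cells and reached a mean of 50 after IL-4 spanned a wider range at 2 h, with a median share of 54.3%, the hormone-like gene Retnla lowest at 9.04% and Socs2, a feedback inhibitor of cytokine signalling, highest at 255%. Gene length differed as well: the spans were 16.1 kb for Tarm1, 58.9 kb for Tmem26, 62.9 kb for Rasgrp1, 110 kb for Scn3a and 217 kb for Mylk, so the 2 longest genes were the 2 with the smallest share at 2 h. With 5 genes the part of length in this order was not tested. Per kb of span, the mean levels at IL-4 4 h were 9.51 normalised read counts for Tarm1, 8.60 for Tmem26, 7.68 for Rasgrp1, 6.47 for Scn3a and 0.357 for Mylk.

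**Figure D2:**
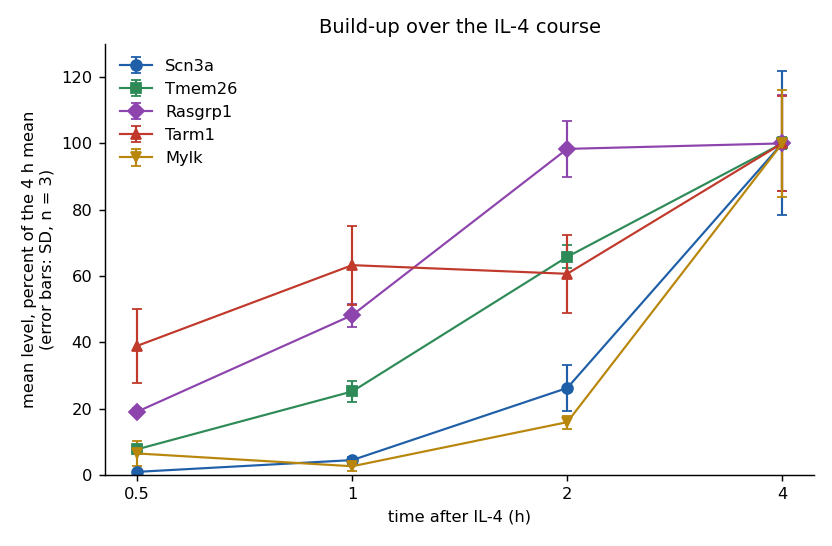
Mean level of each gene as a percent of its own mean at IL-4 4 h (y axis) against time after IL-4 in h (x axis, time points evenly spaced), with error bars of 1 SD over 3 replicates. Tarm1 was at 38.9% by 0.5 h and Rasgrp1 at 98.3% by 2 h, while Scn3a and Mylk were at 26.2% and 15.9% at 2 h.

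The next question was what LPS did to the same genes. The LPS samples took no part in choosing them, but the untreated samples did, so a fall could hardly have been seen and a rise was favoured. Changes from untreated are therefore given gene by gene as a description, with no test. For the share of calls alone, each LPS time point was compared with untreated with limma on log2(value + 1), with Benjamini-Hochberg adjustment over the 13901 genes tested. All 5 genes are among those tested, Scn3a only through its IL-4 samples, since none of its untreated or LPS values reached 10. It is therefore left out of the counts in this paragraph. In the LPS fit 3 of the other 4 genes were called higher after 0.5 h and all 4 after 1, 2 and 4 h. The shares of all genes called higher were 19.6%, 24.8%, 26.9% and 25.9% at the 4 times. Over the whole LPS course 32.9% of all genes had a call whose largest change was upward and 54.7% one that was downward. Among the 498 tested genes whose untreated values were all at or under 3, however, 89.0% were called with a rise over the course. All 4 of 4 is thus near the share for genes of such a low start, and nothing is read from it. The median log2 change of all genes at LPS was −0.24, −0.30, −0.29 and −0.26 at the 4 time points, so each change below lies about 0.3 higher against the median gene. Relative to it the changes at LPS 4 h were 3.04 for Scn3a, 2.86 for Tmem26, 6.31 for Rasgrp1, 9.27 for Tarm1 and 6.61 for Mylk.

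Tarm1 had the largest LPS change of the 5 genes and ended above its IL-4 level. After LPS its replicates stood at 8, 6 and 5 normalised read counts at 0.5 h, 35, 22 and 31 (1 h), 140, 157 and 179 (2 h) and 447, 532 and 576 (4 h), the last a mean of 518 ± 65.6 (SD, n = 3). All 4 groups were separate from untreated and from one another. The mean was at least 2.11-fold, 9.78-fold, 52.9-fold and 173-fold above the floor at the 4 times. At 0.5 and 1 h it was lower after LPS than after IL-4, at means of 6.33 against 59.7 and 29.3 against 97, and at 4 h it was 3.38 times the IL-4 level.

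Mylk also ended higher after LPS than after IL-4. Its LPS replicates stood at 4, 6 and 3 normalised read counts at 0.5 h, 6, 6 and 3 (1 h), 19, 44 and 32 (2 h) and 125, 211 and 163 (4 h), the last a mean of 166 ± 43.1 (SD, n = 3). All 4 groups lay above the untreated value of 1, and the first pair overlapped. The log2 difference from untreated was 3.95 at 2 h and 6.35 (SE 0.35) at 4 h. The early differences of 1.38 at 0.5 h and 1.54 at 1 h rest on a few normalised read counts and were 0.45 and 0.52 with a pseudocount of 8. The 4 h mean was 2.14 times that of IL-4.

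Rasgrp1 stood higher at each later LPS time point and ended below its IL-4 level. Its LPS replicates stood at 14, 5 and 13 normalised read counts at 0.5 h, 33, 19 and 22 (1 h), 62, 55 and 69 (2 h) and 219, 184 and 173 (4 h), the last a mean of 192 ± 24.0 (SD, n = 3). No LPS group overlapped untreated or another LPS group. The log2 differences from untreated were 1.90, 3.12, 4.44 and 6.06 (SE 0.35 at 4 h). The IL-4 mean at 4 h was 2.52 times that of LPS.

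Tmem26 and Scn3a stayed at low levels after LPS. Tmem26 stood at 3, 3 and 4 normalised read counts at LPS 0.5 h, 16, 24 and 18 (1 h), 9, 23 and 17 (2 h) and 17, 15 and 13 (4 h), the last a mean of 15 ± 2 (SD, n = 3). The last 3 groups overlapped one another and lay above untreated. The log2 differences from untreated were 0.72 at 0.5 h, then 2.94, 2.64 and 2.60. They moved when a replicate was left out: without replicate 1, whose untreated value was 5, they were 1.37, 3.65, 3.58 and 3.11, and without replicate 2, whose untreated value was 0, they were 0.08, 2.08, 1.66 and 1.90. The IL-4 mean at 4 h was 33.8 times that of LPS.

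Scn3a stood at 1, 0 and 0 normalised read counts at LPS 0.5 h, 1, 1 and 0 (1 h), 2, 0 and 0 (2 h) and 7, 8 and 8 (4 h), the last a mean of 7.67 ± 0.577 (SD, n = 3). The first 3 LPS groups overlapped untreated and the 4 h group did not, at a log2 difference of 2.78. All its LPS values were under 10, so they are given without a test. The IL-4 mean at 4 h was 93.1 times that of LPS.

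Differences among the 4 LPS time points compare LPS samples with each other, which took no part in the choice. The 3 untreated samples of the fit enter its estimate of spread, however. At LPS 0.5 h the 4 genes tested below still stood low, at means of 3.33 to 10.7, so a later rise was favoured. Shares of calls among all genes of such a low start were not computed for these comparisons. Nothing is therefore read from the number of calls. The 4 genes with LPS values of 10 or more, which leaves out Scn3a, all passed the limma F test among LPS time points, as did 76.1% of all genes, with adjusted p = 0.00336 for Tmem26, 2.08e-07 for Rasgrp1, 1.73e-11 for Tarm1 and 9.91e-09 for Mylk. For Tmem26 the call was lost without replicate 3 (adjusted p = 0.0706). A fit on the 12 LPS samples alone, with the filter on low values applied to those only, was added after seeing the data. It tested 12424 genes and called 78.6% of them and 4 of these 4, with limma adjusted p from 1.89e-10 for Tarm1 to 0.000149 for Tmem26. In the fit with untreated samples the log2 change from 0.5 to 4 h was 1.89 (SE 0.51, adjusted p = 0.00426) for Tmem26 and 4.15 (SE 0.35, adjusted p = 4.87e-08) for Rasgrp1. It was 6.16 (SE 0.23, adjusted p = 6.28e-12) for Tarm1 and 4.98 (SE 0.35, adjusted p = 7.03e-09) for Mylk, where 32.3% of all genes were called higher. Between 2 and 4 h, where 11.4% of all genes were called higher, 3 of the 4 genes still rose in the limma fit. These were Rasgrp1 by 1.61 (adjusted p = 0.00334), Tarm1 by 1.70 (adjusted p = 6.87e-05) and Mylk by 2.40 (adjusted p = 0.000156). The Rasgrp1 step missed the threshold without replicate 3 (limma adjusted p = 0.0528). For Tmem26 the difference from 2 to 4 h was −0.03 (SE 0.51, adjusted p = 0.978).

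Put in order over the 9 groups, the 5 genes fell into unlike patterns. For Scn3a the order was IL-4 4 h, 2 h and 1 h, each separate from the next, then LPS 4 h and IL-4 0.5 h, which overlapped, and then the other LPS groups and untreated, which also overlapped. For Tmem26 all 4 IL-4 groups came first, followed by LPS 1 h, 2 h and 4 h without separation and then by LPS 0.5 h and untreated. For Rasgrp1 the LPS 4 h group came between IL-4 1 h, which it overlapped, and IL-4 0.5 h. For Tarm1 LPS 4 h came first, LPS 2 h and IL-4 4 h overlapped and came next, and the 3 earlier IL-4 groups followed. For Mylk the order was LPS 4 h, IL-4 4 h, LPS 2 h and IL-4 2 h, each separate from the next, with all other stimulated groups between 2 and 5 normalised read counts on average and untreated last.

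Over the 9 group means of log2(value + 1), Pearson's r was 0.93 between Scn3a and Tmem26, 0.90 between Tmem26 and Rasgrp1 and 0.87 between Rasgrp1 and Tarm1. It was 0.40 between Scn3a and Mylk and 0.33 between Tmem26 and Mylk. These values describe 9 points from shared libraries. Among genes with a group mean of at least 50, the nearest in pattern to Scn3a were Gm34833 (r = 0.99), Aifm3 (0.98) and Kynu (0.97). Those nearest to Tmem26 were Ap2m1 (0.96), Xpnpep1 (0.96) and the zinc transporter gene Slc30a4 (0.95). Rasgrp1 was followed by Senp5 (0.96), the receptor gene Flt1 (0.96) and Chst7 (0.95), and Tarm1 by Timm44 (0.97), 3110056K07Rik (0.96) and the inhibitory Fc receptor gene Fcgr2b (0.95). Mylk was followed by Lrrc4 (0.96), Slc39a7 (0.91) and Gm13269 (0.91). Pearson's r does not measure the size of a change, and that size differed widely among these genes. Timm44 had means of 61.3 untreated, 90.3 at IL-4 4 h and 90.7 at LPS 4 h, and Senp5 of 133, 186 and 181. Flt1, by contrast, had means of 10, 1169 and 164.

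Among all 18 genes with every untreated value at or under 3 and an IL-4 group mean of at least 50, 15 had their largest IL-4 change at 4 h and 7 reached a mean of 50 after LPS as well. The level at 4 h was higher after LPS than after IL-4 for 4 of them, namely Tarm1, Mylk, Serpina3g and Gm24924. St8sia1, which encodes a sialyltransferase, was at the other end with mean normalised read counts of 473 at IL-4 4 h and 4.67 at LPS 4 h, and Retnla was at 114 after IL-4 and at 0 in every LPS sample.

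**Figure D3:**
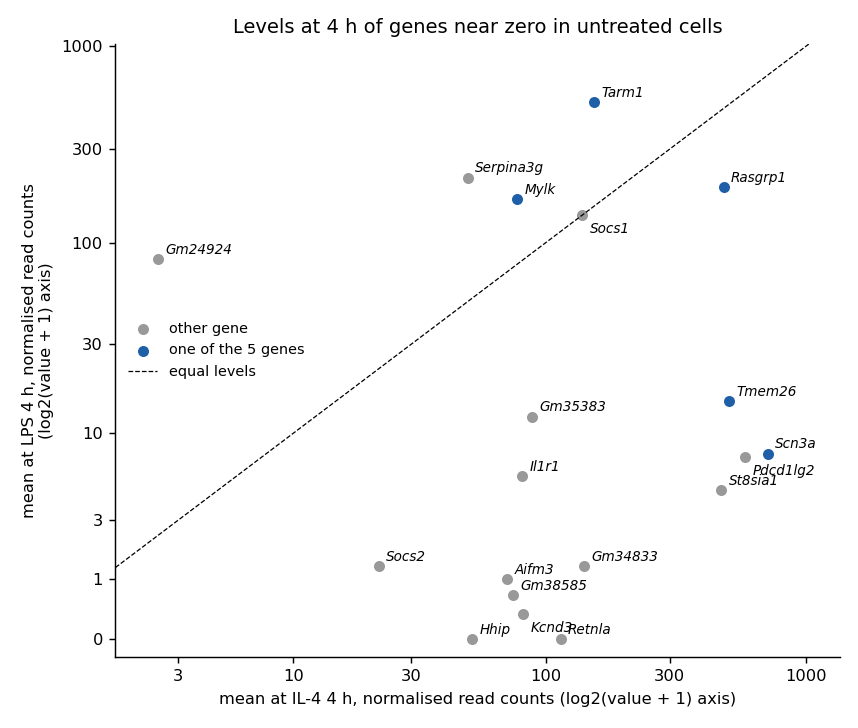
Mean normalised read counts at LPS 4 h (y axis) against IL-4 4 h (x axis), both on a log2(value + 1) scale, for the 18 genes near 0 in untreated cells that reached a mean of 50 after IL-4, and Tmem26. Tarm1 and Mylk lie above the dashed line of equal levels, Rasgrp1 lies below it at 192 against 483, and Scn3a and Tmem26 lie far below it at 7.67 and 15.

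The wider IL-4 response was read from lists of other genes, tested over the IL-4 course with the same limma F test, in which 19.4% of all genes were called higher and 20.9% lower by the direction of their largest change. Of 28 genes known to respond to IL-4, 25 were tested, and 21 were called with a rise and none with a fall. The median largest change was 3.27 against −0.16 over all genes. Some entered the test only through their IL-4 samples, among them Retnla, Cdh1, Klf4 and Mgl2, with untreated and LPS means of at most 3. For such genes the filter favoured a rise, and the counts and the median include them. The largest rises were those of Pdcd1lg2 (log2 8.31), Retnla (6.80), Flt1 (6.78) and the cadherin gene Cdh1 (5.30). Arg1, the arginase of alternative activation, rose from 9.33 ± 4.93 to 61 ± 24.0 normalised read counts at 4 h (SD, n = 3, log2 2.61, limma adjusted p = 0.00244). The transcription factor gene Irf4 rose by 4.64 to 399 ± 34.0, and Egr2, which encodes a zinc finger factor, peaked at 0.5 h at 48.3 ± 5.13, a log2 rise of 3.90. Chil3, Ccl17 and Alox15 had means under 10 in all groups and were not tested. Over the LPS course 12 of the 25 were called with a rise and 6 with a fall, beside 87.6% of all genes called.

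Of 20 genes of the IL-4 pathway itself 19 were tested, 10 were called with a rise and 3 with a fall, with a median largest change of 0.60. Without replicate 2 the calls numbered 7 and without replicate 3 they numbered 8, instead of 13. The rises were led by feedback genes, Socs1 by 6.71 and Cish by 6.44, followed by the kinase gene Jak2 (1.89) and the adaptor gene Irs2 (1.79). They were not particular to IL-4: LPS raised Cish by 7.19, Socs1 by 6.44 and Jak2 by 5.18. Over the LPS course 15 of the 19 were called with a rise and 3 with a fall, beside 87.6% of all genes called. When samples were rescaled to equal totals this balance was 11 and 7. The receptor chain gene Il4ra rose to 1391 ± 86.2 normalised read counts at 2 h, from 432 ± 37.2 (SD, n = 3, log2 1.69, limma adjusted p = 1.93e-05). At LPS 2 h its mean was 3139. Il13ra1, which encodes the partner chain of the type II receptor, had the largest fall (−2.10), followed by the phosphatase gene Ptpn6 (−0.87). Stat6 was lower by 0.47 on the log2 scale at 1 h, from 226 ± 18.0 to 163 ± 18.9 (adjusted p = 0.0264).

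Genes related by family or partnership were listed for Scn3a, Rasgrp1, Tarm1 and Mylk, with no such list for Tmem26. Of these 60 genes 34 were tested. Over the IL-4 course, where 40.3% of all tested genes were called, 3 of the 34 were called with a rise and 15 with a fall. These counts are uneven across replicates, with 18 calls in all, 8 without replicate 2 and 7 without replicate 3. Of 14 other sodium channel genes, 13 had means under 10 normalised read counts in every group and were not tested.

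Around Rasgrp1, 11 of 13 genes for Ras exchange factors, Ras proteins and diacylglycerol kinases were tested, and 1 was called with a rise and 6 with a fall. The rise was that of Rasgef1b, another exchange factor gene, at 0.5 h (log2 1.85, from 367 to 1312 normalised read counts on average). It was brief, with means of 156 at IL-4 2 h and 184 at IL-4 4 h, under the untreated mean. The largest fall was that of Rasgrf1 (−1.45), on small values, with means of 9 in untreated cells, 2.67 at IL-4 2 h and 12.7 at IL-4 4 h. Rasgrp3, the Rasgrp paralog with the highest level, went from a mean of 211 in untreated cells to 96.7 at IL-4 4 h (log2 −1.07, limma adjusted p = 0.00279) and to 1.67 at LPS 4 h. The calls numbered 3 without replicate 2 and 3 without replicate 3.

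Around Tarm1, 9 of 15 genes for leukocyte receptors and their adaptors were tested, and 1 was called with a rise and 7 with a fall over the IL-4 course. Lair1, an inhibitory collagen receptor gene, rose by 2.20, from a mean of 951 to 4375 normalised read counts at 1 h. Pilra fell by 2.84 and Pilrb1 by 2.51 on the log2 scale, both on small values. Their means went from 22.3 to 2.33 at IL-4 2 h for Pilra and from 7.67 to 0.667 at IL-4 1 h for Pilrb1. Fcer1g, the adaptor of Tarm1, was lower at IL-4 0.5 h, at 90.3 ± 10.0 against 140 ± 10.6 (SD, n = 3, log2 −0.63, limma adjusted p = 0.0371), and stood at 130 at 4 h. Pirb, in whose neighbourhood Tarm1 lies, went from 407 to 184 at IL-4 4 h (log2 −1.21) and to 2525 at LPS 4 h. In the LPS course, where 87.6% of all tested genes were called, all 9 were, 7 with a rise and 2 with a fall. The IL-4 calls numbered 5 without replicate 2 and 4 without replicate 3.

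Around Mylk, 13 of 18 genes for myosin light chain kinases, myosins, calmodulins and the myosin phosphatase were tested, and 1 was called with a rise and 2 with a fall. The heavy chain gene Myh9 rose by 0.64 at 0.5 h, from a mean of 814, but stood at 594 at IL-4 4 h. Calm2 fell by 0.81 and Ppp1r12b, a phosphatase subunit gene, by 0.38. Under a replicate block, with the number as a term, the calls were 5, and without replicate 2 or without replicate 3 they were 0. Mylk2, Mylk3 and Mylk4, the paralogs of Mylk, had means under 10 in every group and were not tested. In the LPS course 7 of the 13 were called with a rise and 5 with a fall, beside the same 87.6% of all genes, a balance that turned to 3 and 10 when samples were rescaled to equal totals.

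**Figure D4:**
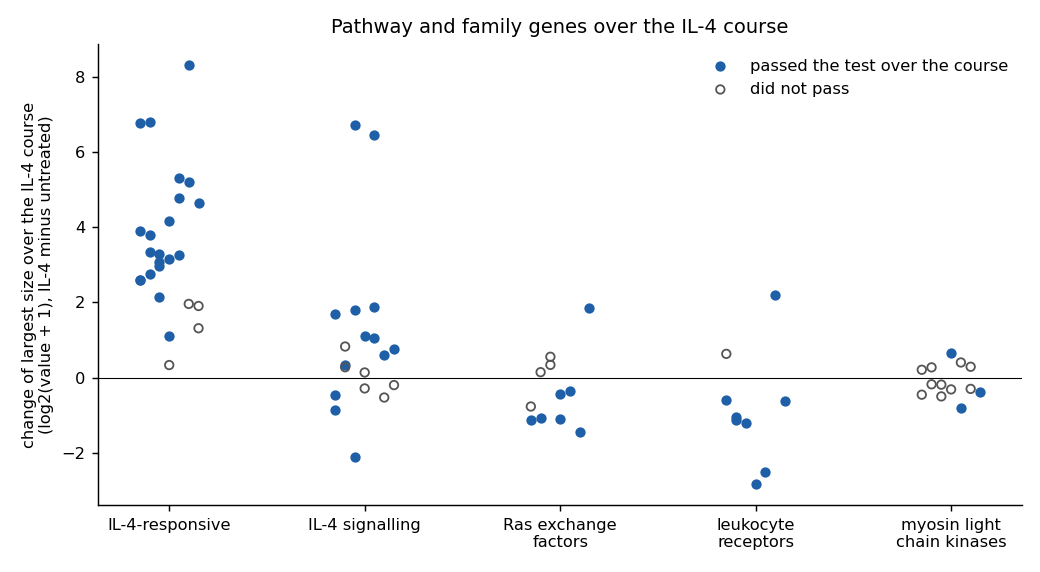
Change of largest size over the IL-4 course (y axis, log2(value + 1), IL-4 minus untreated) for the tested genes of 5 lists, 1 point per gene, filled where the limma F test was passed. The IL-4-responsive genes centre on a median of 3.27, while the family lists around Rasgrp1, Tarm1 and Mylk lie mostly below 0 or near it.

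The genes around the 5 in the genome were then examined. Of the 59 other genes that lie at least in part within 250 kb, 24 were tested, and 6 were called with a rise and 4 with a fall over the IL-4 course, a share of 41.7% against 40.3% over all genes. The calls numbered 5 without replicate 2 and 6 without replicate 3. The non-coding gene Gm34833 (chromosome 2, 65553771 to 65585288, plus strand) overlaps the start of Scn3a on the other strand. It stood at 0 in every untreated replicate, at 91, 143 and 188 in the IL-4 4 h replicates, a mean of 141 ± 48.5 (SD, n = 3), and at 1.33 at LPS 4 h. Gm34833 entered the test only through its IL-4 samples, so its rise, counted among the 6, was favoured by the filter. Its mean was 52.6%, 39.0%, 25.3% and 19.7% of that of Scn3a at the 4 IL-4 times. Whether the counting used strand is not given in the sources used here, so reads of the 2 genes may not have been told apart. Scn2a, the next sodium channel gene at a gap of 53.3 kb, did not exceed a mean of 1.33 in any group, nor did Slc38a11 on the other side. Cobll1, at a gap of 218 kb, rose from 7.67 to a mean of 199 at IL-4 2 h (log2 4.54, limma adjusted p = 8.08e-07). It rose after LPS too, to a mean of 226 at 2 h (log2 4.72, limma adjusted p = 4.79e-09). Over the LPS course 12 of the 24 tested genes were called with a rise and 9 with a fall. That is a share of 87.5% against 87.6% over all genes. With median-of-ratios factors the rises and falls numbered 15 and 4.

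Near Rasgrp1, Fam98b, at a gap of 8.44 kb, went up to 135 ± 33.6 at IL-4 2 h from 33.7 ± 4.16 normalised read counts (SD, n = 3, log2 1.95, limma adjusted p = 0.000477). Spred1, an inhibitor of the Ras pathway, went up by 1.35 at IL-4 0.5 h, from a mean of 784, but stood at 381 at IL-4 4 h. Both were called higher after LPS as well, Fam98b by 1.66 at 0.5 h and Spred1 by 3.18 at 1 h. None of the 4 genes near Tmem26 was tested, the nearest protein-coding one, Cabcoco1, having means of at most 4. The nearest protein-coding genes of Tarm1, Cacng6 and Oscar, had means of at most 1.33 and 1. Of the 16 genes tested near Tarm1 2 were called with a rise and 3 with a fall. Next to Mylk, Hacd2 fell by 0.70 over the IL-4 course and Ccdc14 was not called (log2 −0.41). The 2 non-coding genes inside Mylk, 1700119H24Rik and E130310I04Rik, had means of at most 1.33 and 5.33 in any group.

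**Figure D5:**
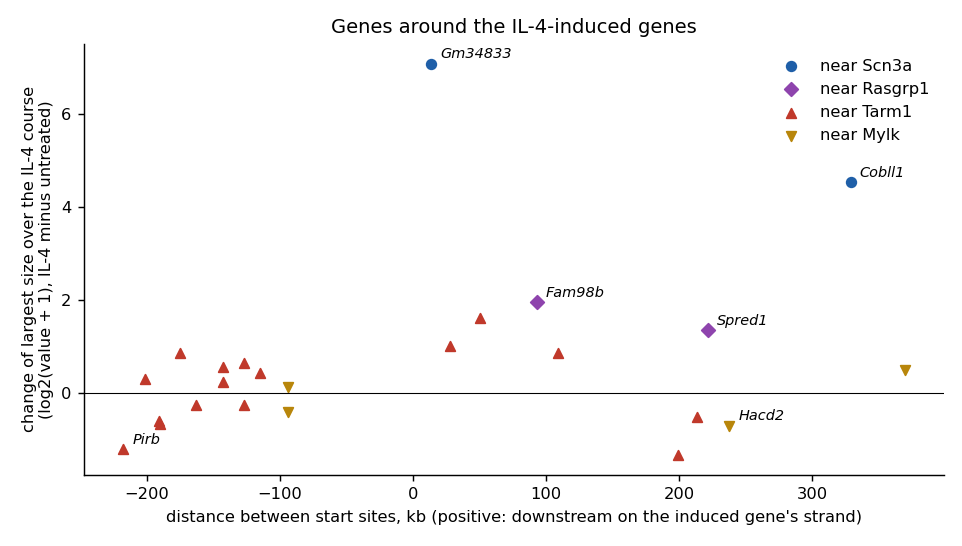
Change of largest size over the IL-4 course (y axis, log2(value + 1), IL-4 minus untreated) of the 24 tested genes around Scn3a, Rasgrp1, Tarm1 and Mylk, against the distance of their start sites in kb (x axis, positive values downstream on the strand of the induced gene). Gm34833 at 7.09 and Cobll1 at 4.54, both near Scn3a, and Fam98b at 1.95 stand above the rest.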

How the data were processed

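Chromatin-associated RNA was measured in 27 samples, in 9 groups of 3 replicates given by the labels. Per the labels and the study's methods, the authors made libraries with a Smart-seq2 procedure, aligned reads to mm10 (TopHat2 2.1.1), counted them per RefSeq gene (GRCm38.p6; bedtools 2.29.2 is in the submitters' processing notes) and normalised on invariant genes. What the authors deposited is the normalised read count of each gene, rounded, which was treated as a score. Depth is unknown. No test for raw counts was therefore run, and the impulse model of the study was not run.

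Genes with at least 10 in at least 3 samples were tested (13901). The scale was log2(value + 1) and the tool limma 3.58.1 (R 4.3.3), with a mean-variance trend, separately for each course (3 untreated and 12 stimulated samples), with a threshold of 0.05 on p-values adjusted by Benjamini-Hochberg over all genes tested. Such changes understate those of low genes. The fits were tested on simulated data. The 5 genes, the lists, from general knowledge, and the rule for the genes named (per list, the 4 largest called rises, the 2 largest called falls and some fixed genes) were chosen with earlier results of these data known. Cobll1, Spred1, St8sia1, Gm24924, Retnla as an LPS contrast, and Mylk2 to Mylk4 were named after their values were seen. Some genes that the rule names are not reported here.

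Nothing says that replicates came from separate animals or cultures, so p-values measure only the spread between these samples. Same-numbered samples deviated together in every pair of the IL-4 course (r of 0.21 to 0.71). In the LPS course they also deviated together, more weakly, with r of 0.09 to 0.60. The lowest lay under the cut-off of 0.1 set for a pairing. A pairing by number, in either course, is thus read from the data, not the design. The reported fits of both courses are unpaired, with no replicate term, and the replicate block was used only as another setting. The 12 other settings tried covered pseudocounts, filters, scalings, weights, the replicate block and leaving out replicates, and a fit on the LPS samples alone was added after seeing the data. Promoter sequences are from RefSeq (4 of 5 genes matched).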

Additional observations from a re-analysis of the deposited data

Results flagged for a closer look

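The 5 genes were marked because their LPS effect differed between time points by a test of the difference itself, and all did so in the same direction. A rise was favoured by their low start, so nothing is read from the shared direction. The LPS effect at 4 h minus that at 0.5 h, on the log2 scale, was 2.78 for Scn3a, 1.89 for Tmem26, 4.15 for Rasgrp1, 6.16 for Tarm1 and 4.98 for Mylk, with limma adjusted p-values between 6.28e-12 and 0.00426 for the last 4. Scn3a had no LPS value of 10 or more and was in the test only through its IL-4 samples, so its value is a description.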

How the results depend on the processing

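The LPS calls over the course rest on the untreated samples that helped choose the genes. Of tested genes with every untreated value at or under 3, 89.0% were called with a rise, so nothing is read from their number. Scn3a is counted in the LPS calls below though it entered the test only through its IL-4 samples. The calls over the course numbered 5 in all settings tried except under a filter that asks for a mean of 50 or more over the fitted samples. It left 2 of the genes to test (Rasgrp1 and Tarm1, both called, 2 of 2 also among LPS time points). That filter left 15 IL-4-responsive genes to test, of which 13 were called. With replicates 2 and 3 averaged into 1 sample per group, the calls over the IL-4 course were 8 of the IL-4 signalling genes, 8 of the family genes and 6 of the neighbours, instead of 13, 18 and 10. Leaving out each replicate in turn gave 5 to 5 LPS calls, 4 to 5 calls among LPS time points, 20 to 24 IL-4-responsive, 7 to 14 signalling, 7 to 20 family and 5 to 8 neighbour genes. The median log2 difference of the 5 genes at IL-4 4 h, 7.38, was 8.06 with a pseudocount of 0.5 and 5.61 with 8, and 7.08 to 7.53 without 1 replicate. With the replicate block the calls were 5 and 5 for LPS, 23 IL-4-responsive, 16 signalling, 22 family and 11 neighbour genes. Over both courses 19 of the 27 samples correlated best with their own number, and the block left all LPS calls of the 5 genes as they were. No called LPS change and no IL-4 4 h difference of the 5 genes turned its direction, while the uncalled Tmem26 difference between LPS 2 and 4 h took either sign, from −0.47 without replicate 1 to 0.24 without replicate 2. Under rescaling the largest change of some list genes turned: over the LPS course in 9 genes with equal totals and in 6 with median-of-ratios factors, and over the IL-4 course in 2 with equal totals, Socs3 from 1.11 to −1.17 and Cnot3 from 0.23 to −0.29. With the LPS samples alone 4 of 4 genes were called among LPS time points. Of the values of single genes and single lists, 466 kept their side, 35 moved, 8 lost and 1 gained a call. Depth cannot be read from normalised values. Differences between values under 10, as for Scn3a at every LPS time and Tmem26 at LPS 0.5 h, rest on small values. The causes of these differences were not tested.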
